A study of Homo sapiens with 24 samples.

Results

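The arrays described here followed the response of LNCaP cells to knockdown of the lncRNA TAPIR-2 from 24 h to 48 h after delivery of the siRNA. LNCaP is an androgen-sensitive human prostate cancer line. Total RNA was hybridised to 1-colour Agilent arrays, and 15 of the 24 arrays of the series were used for the comparison: 4 of si-A2, directed against TAPIR-2, and 4 of the scrambled control siRNA si-SCRL at 24 h, then 4 of si-SCRL and 3 of si-A2 at 48 h. The arrays of si-A2 at 48 h came from replicates 1, 3 and 4, since replicate 2 was too dim and was left out, as in the methods of the study. The remaining 8 arrays that were used carried si-A1, directed against the neighbouring lncRNA TAPIR-1, and served to estimate the spread and for comparison.

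All groups were LNCaP cells grown in the same medium with serum, and the si-SCRL cells went through the same electroporation with a duplex of medium GC content that matches no human transcript. The labels place TAPIR-2 at chr2:1620510-1625419 of GRCh38.p12. For each gene, the effect of si-A2 is the difference of its log2 intensity from si-SCRL at the same time, and the change is the effect at 48 h minus the effect at 24 h, so that a positive change of a decreased gene means a smaller decrease at 48 h. All 24 h arrays were of one array version and all 48 h arrays of another, so only probes present on both versions entered, and effects were taken within a version. This left 30270 genes. Levels at 24 h and 48 h are not compared with each other, since time and array version cannot be told apart in them, and what a version adds to an effect cannot be told apart from time either.

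Cells that pass from G1 into S phase switch on genes for origin licensing and DNA synthesis under the control of E2F factors, and the histone genes that supply new chromatin are transcribed in S phase itself. Genes for mitosis are switched on later, in G2, mostly through the CHR element in their promoters. The p53 protein induces the CDK inhibitor CDKN1A (p21), and the DREAM complex, an assembly of RB-like pocket proteins, E2F4 and the MuvB core, then represses both groups of genes.

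The arrays of si-A2 and si-SCRL had median processed intensities from 24.4 to 54.4 at 24 h and from 20.4 to 32.2 at 48 h, against 13.9 on the array left out. The dimmest array of 24 h was si-SCRL replicate 3. Its median correlation with its own group was 0.953, against at least 0.974 for the other 24 h arrays. Its median of the S phase genes was 0.29 above the si-SCRL mean, the highest of the si-SCRL arrays. Some counts without it are given below. The 14 luminal prostate markers were well above background on all 15 arrays. Of 16 markers of basal, stromal, endothelial or blood cells with a probe, 5 (VWF, CDH5, PTPRC, CD3E and CD79A) were also well above background on all 15, and 3 (KRT5, COL1A2 and LUM) on none. The log2 of the summed linear intensity of the 16 was 15.41 to 15.74 for si-A2 and 13.02 to 15.91 for si-SCRL at 24 h. At 48 h it was 16.02 to 16.23 for si-A2 and 16.06 to 16.27 for si-SCRL. CD79A alone read 12.90 to 16.24, and the brightest of the others, CDH5, at most 10.11, so the sum is mostly CD79A. The 12 of the 16 that passed the filter on dim probes had a median change of -0.24. Their median effect of si-A2 was 0.19 at 24 h and -0.03 at 48 h. Their medians on the 4 si-SCRL arrays of 24 h ran from -0.39 to 0.32 around the si-SCRL mean. The part of these markers in the results below was not tested.

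The probe for TAPIR-2 was dim. At 24 h its log2 intensity was 4.99, 4.88, 5.16 and 4.69 with si-SCRL and 4.57, 2.70, 4.47 and 3.55 with si-A2, and the scanner marked it as well above background on only 2 arrays of si-A2. All si-A2 values lay below all si-SCRL values, with a difference of -1.11 (exact two-sided permutation test, p = 0.0286, the smallest that 4 against 4 arrays allow; limma, adjusted p = 0.0688). At 48 h the values were 4.82, 5.51, 4.18 and 4.58 with si-SCRL and 5.74, 4.05 and 4.73 with si-A2. Here the groups overlapped, and the difference of means was 0.06 (exact two-sided permutation test, p = 0.857, against a smallest possible p of 0.0571). The change of the TAPIR-2 effect was 1.36 with a 95% interval from 0.34 to 2.38 and was not called (limma, adjusted p = 0.503). The probe therefore gave no measured reduction of TAPIR-2 at 48 h to set the effects of that time against, although its dimness limits that reading. The study itself showed the knockdown of TAPIR-2 in LNCaP cells by qPCR, at a later time than these arrays.

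Genes called lower with si-A2 outnumbered those called higher at both times. At 24 h, 581 genes (1.92% of those tested) were called lower and 124 (0.41%) higher than with si-SCRL, at an adjusted p below 0.01 in limma and an absolute difference of at least 0.5. At 48 h, 383 (1.27%) were called lower and 97 (0.32%) higher. Which time had more calls depended on the arrays and their weights. In both directions together there were 705 at 24 h and 480 at 48 h, the latter from 3 si-A2 arrays in place of 4, but 477 and 864 with weights for the arrays of each time and 588 and 653 without si-SCRL replicate 3 at 24 h. The count at 48 h was 221, 218 or 302 without si-A2 replicate 1, 3 or 4 of that time and 239 without si-SCRL replicate 4. With all arrays, the median effect over all genes was 0.05 at 24 h and 0.02 at 48 h, and the median change was -0.02.

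Genes called at one time mostly had the same direction at the other. The 2 times share no array, but the normalization, the choice of probes and the spread of each gene came from both times together. A choice made at one time is therefore not fully independent of the values at the other. Of the 581 genes called lower at 24 h, 567 (97.6%) were below si-SCRL at 48 h, where 47.3% of all genes were, and 243 were called lower again (41.8% of the genes called lower at 24 h and 63.4% of those called lower at 48 h). Their median effect was -1.21 at 24 h and -0.82 at 48 h. Of the 383 genes called lower at 48 h, 376 were below si-SCRL at 24 h, and their median effect was -0.94 at 24 h and -1.06 at 48 h. Of the 124 genes called higher at 24 h, 103 were above si-SCRL at 48 h and 27 were called higher again (21.8%), with median effects of 0.78 and 0.34. Of the 97 called higher at 48 h, 91 were above si-SCRL at 24 h, with median effects of 0.41 and 0.86. In all 4 sets the median effect was larger at the time by which the genes were chosen, which the choice itself favours, so these medians show no general change of size.

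The change itself, tested at an adjusted p below 0.05, was called for 31 genes. It was positive for 27 (0.0892% of those tested) and negative for 4 (0.0132%). Of the 27, 26 had been called lower at 24 h and 12 were still called lower at 48 h. The remaining one, ITGAL, was not well above background in either group at 24 h nor with si-SCRL at 48 h, so that no size is given for it. In 6 of the 27 only si-A2 was not well above background at 24 h, so their changes are bounds. That of BRCA1, 0.34, is below the minimum of 0.5 for a call. The calls were not equally stable: of the 27, 9 kept theirs in fewer alternatives of the processing than lost it. These were PSMC3IP (11 of 39), FANCA (12), ESRRB (12), H3C7 (13), MCM3 (14), H2AC16 (15), MCM4 (16), GINS2 (17) and WDHD1 (18). At an unadjusted p below 0.05 there were 2229 genes, and the median standard error of a change was 0.29. The number called fell to 9 without si-A2 replicate 1 at 48 h and was 50 without si-A2 replicate 3 at 48 h, 15 without si-SCRL replicate 1 or si-A1 replicate 2 at 48 h, and 15 without the term for the slide. It was 2 when the dim si-A2 array of 48 h was kept. It lay between 16 and 19 when 1 of several other arrays was left out (si-SCRL replicates 1 and 4, si-A1 replicates 2 and 3 and each si-A2 replicate at 24 h, and si-SCRL replicate 3, si-A1 replicate 3 and si-A2 replicate 4 at 48 h).

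**Figure D1:**
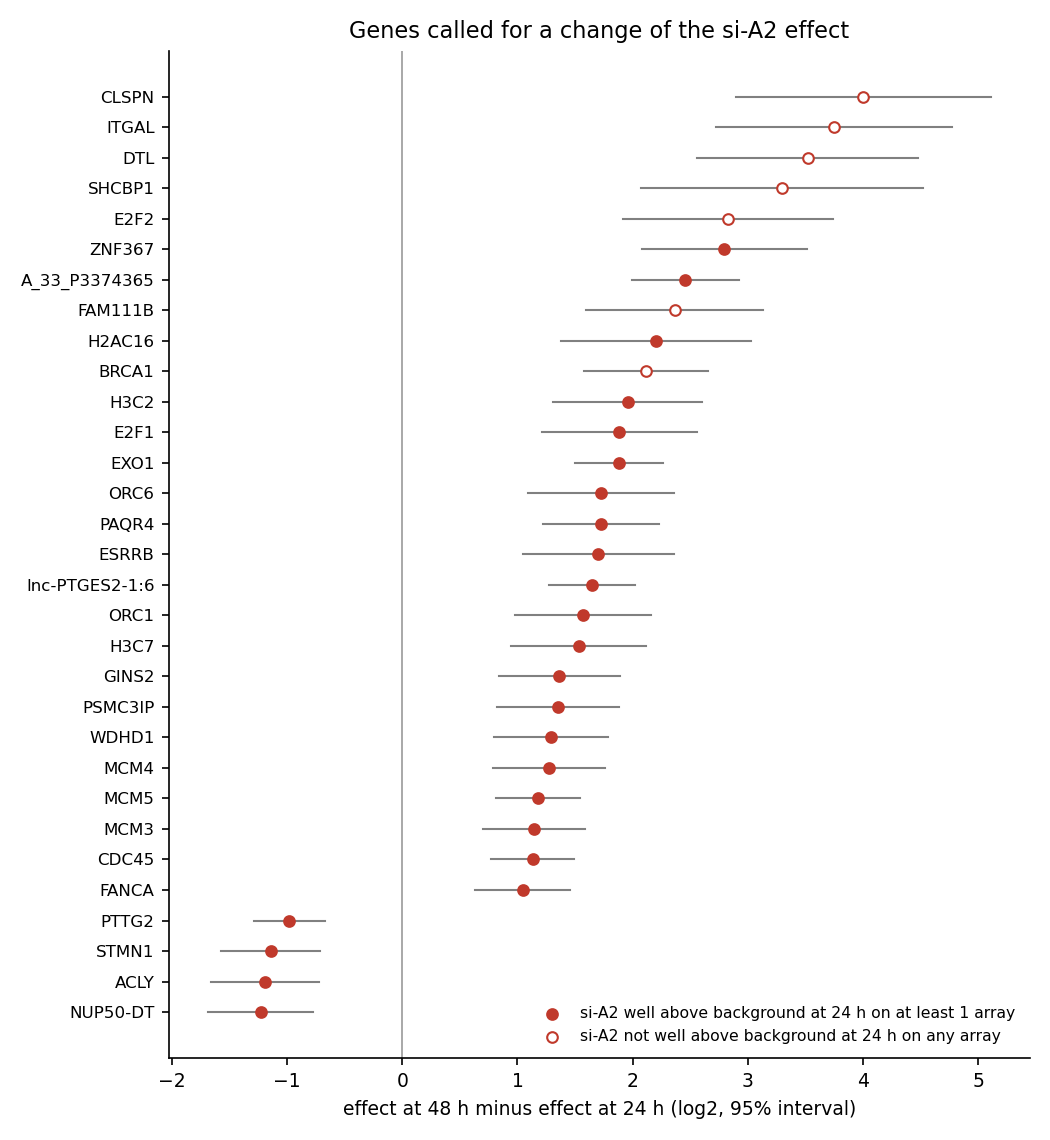
Change of the si-A2 effect from 24 h to 48 h (log2, x axis) for the 31 genes called, 1 row a gene, with points for the estimates and bars for 95% confidence intervals. Open points mark genes whose si-A2 arrays at 24 h were not well above background, so that their fitted values are not measured sizes and their order is not known. 27 changes lie to the right of 0 and 4 to the left.

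Fewer S phase genes were called lower with si-A2 at 48 h than at 24 h. Of the 43 genes of a list used for scoring S phase, 41 passed the filter on dim probes. With si-A2, 35 of them were called lower at 24 h (1.92% of all genes) and 13 at 48 h (1.27% of all genes). All 13 had been called at 24 h, and the calls at 48 h came from 3 si-A2 arrays in place of 4. The median effect of the 41 was -1.55 at 24 h and -0.77 at 48 h, and the median change was 0.94 against -0.02 over all genes. The change was positive for 36 of the 41 and was called for 7, all positive (CLSPN, DTL, EXO1, GINS2, MCM4, MCM5 and CDC45). Over all genes tested, 0.0892% had a positive called change. At an unadjusted p below 0.05 the change was positive in 29 of the 41 and negative in 0, where 2229 of the 30270 genes passed in either direction.

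Taken array by array, the median of the S phase list relative to the mean of si-SCRL at the same time was -1.74, -1.72, -1.60 and -1.48 with si-A2 at 24 h and -0.60, -1.08 and -0.71 at 48 h. The 2 sets of arrays did not overlap. The 4 si-SCRL arrays ranged from -0.15 to 0.29 at 24 h and from -0.23 to 0.10 at 48 h, so every si-A2 array remained below every si-SCRL array at both times. Within slides the 4 possible differences between the times gave median changes from 0.64 to 1.00. The size depended on the background correction: the median change was 0.35 with normexp correction and 0.39 with no correction, and it was also 0.35 with the dim si-A2 array kept. In 4 members si-A2 was not well above background at 24 h. Over the 33 members well above it on at least 2 arrays of each of the 4 groups, an alternative added after seeing the data, the median change was 0.80.

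CLSPN, which encodes the checkpoint mediator claspin, was called for a positive change. Its log2 intensity with si-SCRL at 24 h was 7.17, 7.46, 7.73 and 7.36, and with si-A2 it was 2.50, 2.15, 2.81 and 1.79, below the limit for a signal well above background on each. At 48 h it was 7.98, 7.97, 7.47 and 7.85 with si-SCRL and 7.01, 6.09 and 6.76 with si-A2. The groups were apart at both times, by a wide gap at 24 h and a small one at 48 h. Since the low values at 24 h are only bounds, the decrease was at least 16.3-fold and the change at least 2.83 (limma, adjusted p = 0.00214 for the fitted change). The same held for DTL, the substrate adaptor of the CRL4 ubiquitin ligase that removes licensing factors in S phase: it was at least 10.6-fold lower at 24 h, its effect at 48 h was -0.94, and its change was at least 2.44 (limma, adjusted p = 0.00214).

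EXO1, the exonuclease that resects DNA ends (chr1:241847986-241889939, GRCh38.p14), was measured above background in every group. It read 7.17, 7.36, 7.27 and 7.06 with si-SCRL and 4.98, 4.55, 4.32 and 4.38 with si-A2 at 24 h. At 48 h the values were 6.97, 6.91, 6.38 and 6.31 with si-SCRL and 6.08, 5.54 and 5.78 with si-A2. All si-A2 values were below all si-SCRL values at both times. Its effect went from -2.66 to -0.77, a change of 1.88 with a standard error of 0.18 (limma, adjusted p = 9.86e-05), and it was called under all 39 alternatives that gave it a value.

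MCM5, a subunit of the replicative helicase (chr22:35400140-35455031, GRCh38.p14), showed the same with little spread. Its log2 intensity at 24 h was 9.74, 9.93, 9.32 and 9.66 with si-SCRL and 7.62, 7.53, 7.52 and 7.59 with si-A2. At 48 h it was 10.20, 10.33, 10.10 and 10.11 with si-SCRL and 9.33, 9.05 and 9.38 with si-A2. The gap between the groups narrowed but did not close: the effect was -2.10 at 24 h and -0.92 at 48 h, and both were called. The change was 1.18 with a standard error of 0.17 (limma, adjusted p = 0.00843). Within slides the effect was -2.26 and -1.94 at 24 h and -0.93 and -0.89 at 48 h.

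Of the other subunits of the MCM helicase, the change was called for MCM3 (1.14) and MCM4 (1.27), each in fewer than 17 of 39 alternatives. It was 0.88 for MCM2, 0.99 for MCM6 and 0.73 for MCM7, which did not pass the test. Of the partners of the helicase, CDC45 (1.13) kept its call in 35 alternatives and GINS2 (1.36) in 17. Some genes of the list kept their decrease. TYMS, the thymidylate synthase, had effects of -0.94 and -1.36, both called, and PCNA, the sliding clamp of DNA polymerase, of -1.23 and -0.90, both called. Their changes of -0.41 and 0.33 did not pass the test.

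Genes of late G1 and origin licensing, which act before S phase starts, had a smaller median decrease at 48 h, though not on every array. Of 30 genes, 27 passed the filter. At 24 h 16 were called lower (1.92% of all genes) and at 48 h 5 (1.27% of all genes), 4 of them at both times. Their median effect was -1.14 at 24 h and -0.69 at 48 h, with a median change of 0.49. The array medians relative to si-SCRL were -1.15, -1.21, -1.01 and -1.07 at 24 h and -0.55, -1.10 and -0.62 at 48 h, so that replicate 3 at 48 h lay within the range of 24 h. The change was called for 5, all positive, where 0.0892% of all genes had a positive called change. They were E2F1 and E2F2, activating transcription factors of the G1/S transition, ORC1 and ORC6, subunits of the origin recognition complex, and MCM3. ORC6 had a change of 1.73 and ORC1 of 1.57. E2F2 was at least 6.37-fold lower at 24 h, since its si-A2 arrays were not well above background there, and its change was at least 1.60.

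E2F1 had log2 intensities of 8.27, 8.17, 8.47 and 7.81 with si-SCRL and 5.32, 4.88, 4.77 and 4.88 with si-A2 at 24 h. At 48 h they were 8.46, 8.15, 8.30 and 8.88 with si-SCRL and 7.28, 6.70 and 7.45 with si-A2. The groups were apart at both times. The effect of -3.22 at 24 h was -1.33 at 48 h, a change of 1.89 with a standard error of 0.32 (limma, adjusted p = 0.0305). In contrast, CCNE1, cyclin E1, had effects of -0.16 and 0.30 at 24 h and 48 h.

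**Figure D2:**
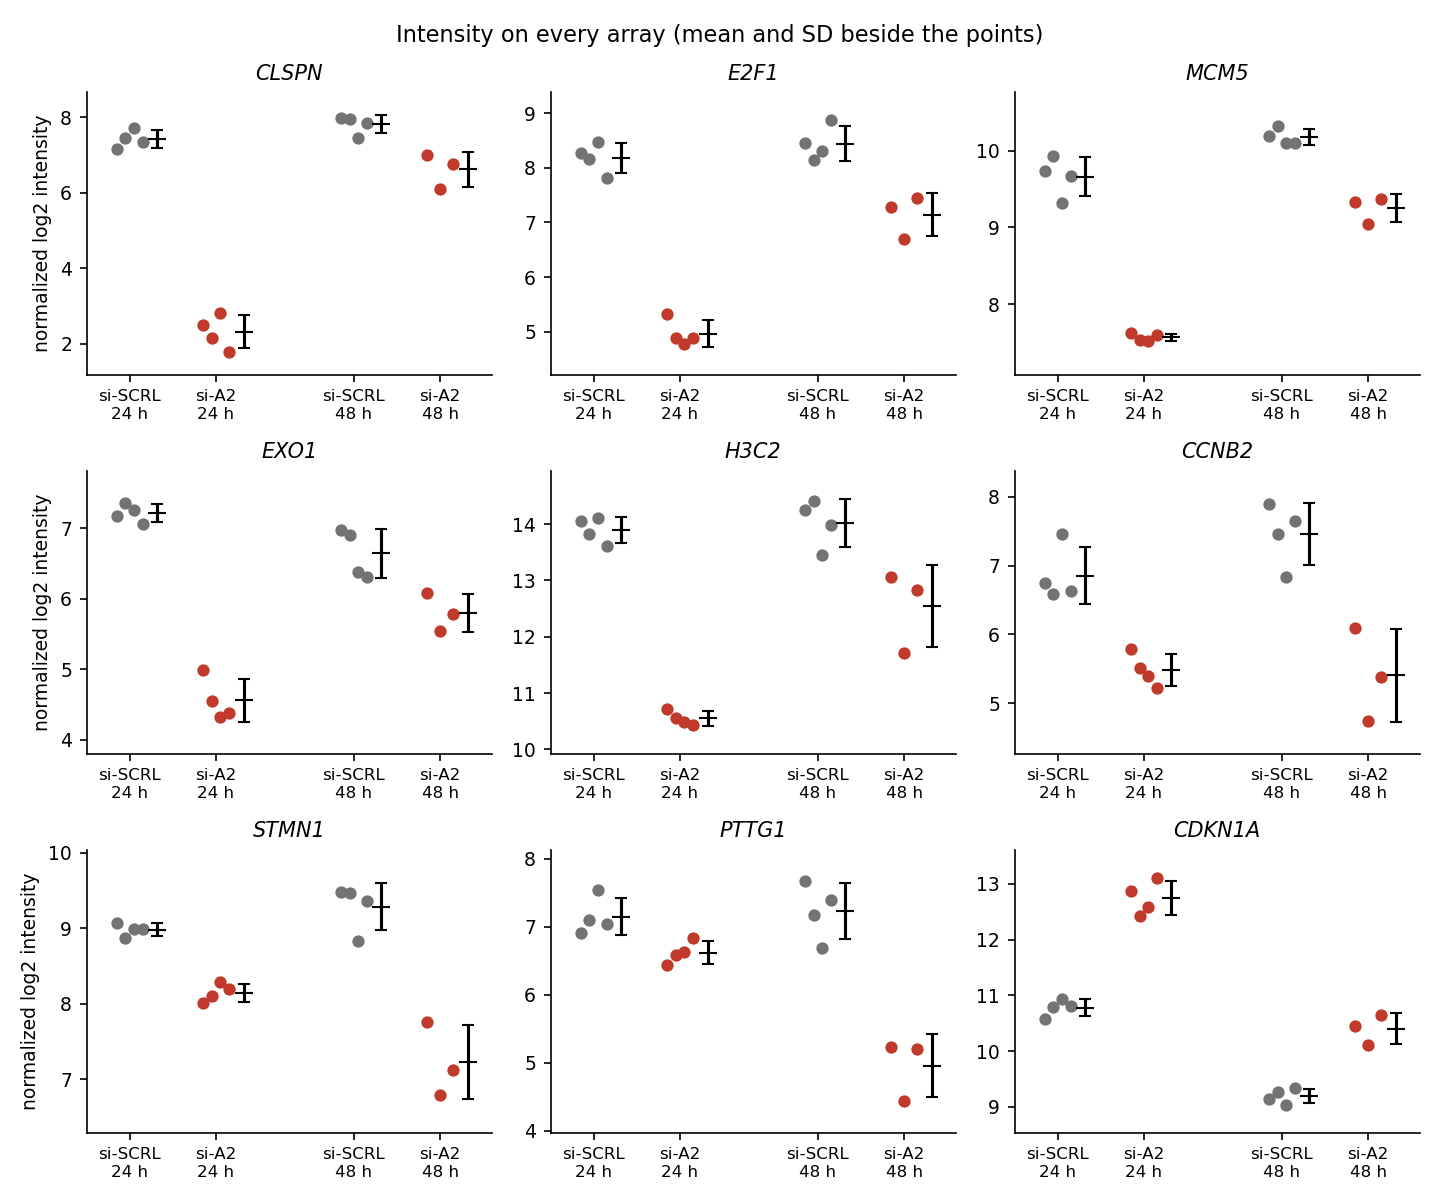
Log2 intensity (y axis) of CLSPN, E2F1, MCM5, EXO1, H3C2, CCNB2, STMN1, PTTG1 and CDKN1A on every si-SCRL and si-A2 array at 24 h and 48 h (x axis), 1 panel a gene, with points for arrays and bars for the mean ± SD. MCM5 with si-A2 lies near 7.56 at 24 h and near 9.25 at 48 h, against 9.66 and 10.18 with si-SCRL, whereas PTTG1 and STMN1 separate from si-SCRL more at 48 h.

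Most replication-dependent histone genes were still called lower at 48 h. Of 58 genes, 55 had a probe on both versions and passed the filter. At 24 h 50 were called lower (1.92% of all genes) and at 48 h 43 (1.27% of all genes), all 43 of them at both times. Their median effect was -1.80 at 24 h and -1.23 at 48 h, and the median change of 0.55 was positive for 50 of the 55. It was called for 3, where 0.0892% of all genes had a positive called change: H2AC16 (2.20), H3C2 (1.96) and H3C7 (1.53). Many of these genes are near-identical copies, so probes of one may read others and the members are not independent. H1-5, a linker histone, had effects of -3.92 and -1.62 and a change of 2.30 that did not pass the test (limma, adjusted p = 0.134).

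H3C2, which encodes histone H3, had log2 intensities of 14.05, 13.83, 14.11 and 13.61 with si-SCRL and 10.72, 10.55, 10.48 and 10.44 with si-A2 at 24 h. At 48 h they were 14.25, 14.41, 13.45 and 13.98 with si-SCRL and 13.07, 11.71 and 12.84 with si-A2. All si-A2 values stayed below the si-SCRL values, and replicate 3 at 48 h was the lowest of its group. The same array was lowest for the whole list, whose medians relative to si-SCRL were -0.90, -1.87 and -1.16 at 48 h, against -1.90 to -1.60 at 24 h. Replicate 3 at 48 h thus lay within the range of the 24 h arrays, and with the dim array kept the median change of the histones was -0.18.

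Genes of the Fanconi anemia pathway, which repairs interstrand crosslinks, were split. Of 24 genes 22 passed the filter. At 24 h 11 were called lower (1.92% of all genes) and at 48 h 6 (1.27% of all genes), all 6 at both times. The median effect was -1.07 at 24 h and -0.49 at 48 h. Their median change was 0.24 and 0.47 without si-A2 replicate 3 at 48 h. The change was called for BRCA1 and FANCA (1.05), both positive, where 0.0892% of all genes had a positive called change. BRCA1 with si-A2 was not well above background at 24 h, where it read 1.60, 1.49, 1.68 and 1.67 against 4.42, 4.63, 5.09 and 4.97 with si-SCRL. At 48 h it read 4.57, 3.91 and 4.63 against 5.23, 5.54, 5.35 and 5.52. It was at least 2.59-fold lower at 24 h, and its change was at least 0.34 (limma, adjusted p = 0.00125 for the fitted change). This bound is below the minimum of 0.5 for a call, so the call of BRCA1 rests on values below background. FANCI and FANCD2, which form the clamp at the centre of the pathway, were called lower at both times with changes of 0.15 and 0.38 that did not pass the test.

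Genes of G2 and mitosis had close median effects at both times, and none of their changes was called. Of 54 genes 53 passed the filter. At 24 h 40 were called lower (1.92% of all genes) and at 48 h 30 (1.27% of all genes), 29 of them at both times. Their median effect was -1.37 at 24 h and -1.45 at 48 h, and the median change was -0.08. The change was called by limma for 0 of the 53 and was positive for 20, and at an unadjusted p below 0.05 it was positive in 4 and negative in 7. The 40 genes called at 24 h had a median effect of -1.52 then and of -1.51 at 48 h. For the S phase genes called at 24 h, chosen in the same way, the 2 values were -1.85 and -0.82. The array medians of the list were -1.18, -1.33, -1.37 and -1.43 at 24 h and -1.02, -1.82 and -1.41 at 48 h, so that the 2 times overlapped.

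CCNB2, cyclin B2, had log2 intensities of 6.74, 6.59, 7.46 and 6.63 with si-SCRL and 5.79, 5.52, 5.40 and 5.23 with si-A2 at 24 h. At 48 h they were 7.90, 7.46, 6.84 and 7.65 with si-SCRL and 6.09, 4.74 and 5.38 with si-A2. The groups were apart at both times, with effects of -1.37 and -1.97 and a change of -0.60 (95% interval -1.42 to 0.23). BIRC5, the inhibitor of apoptosis survivin, had effects of -1.90 and -1.88 and a change of 0.02 whose interval ran from -0.65 to 0.69. CENPF (-1.52 and -2.46), NEK2 (-1.20 and -2.01) and AURKA (-1.13 and -1.70), 3 genes of centromere and spindle function, were called lower at both times. Their changes of -0.94, -0.81 and -0.57 did not pass the test.

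A few genes of the list leaned the other way. AURKB, a kinase of the chromosomal passenger complex, had an effect of -1.72 at 24 h, which was called, and of -0.36 at 48 h, which was not, with a change of 1.36 (95% interval 0.71 to 2.01; limma, adjusted p = 0.143). TTK, the spindle checkpoint kinase MPS1, was at least 6.81-fold lower at 24 h, where si-A2 was not well above background, and had an effect of -1.70 at 48 h, and both were called. MKI67, the proliferation marker Ki-67, had effects of -1.07 and -0.51, of which the first was called. Its probes disagreed in size: dimmer ones gave differences from si-SCRL of -2.26 at 24 h and -1.77 at 48 h, and of -2.83 and -2.10. In 6 members si-A2 was not well above background at 24 h, and over the 45 well above it on at least 2 arrays of each of the 4 groups the median change was -0.12. With the dim si-A2 array kept the median change of the list was -0.54.

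**Figure D3:**
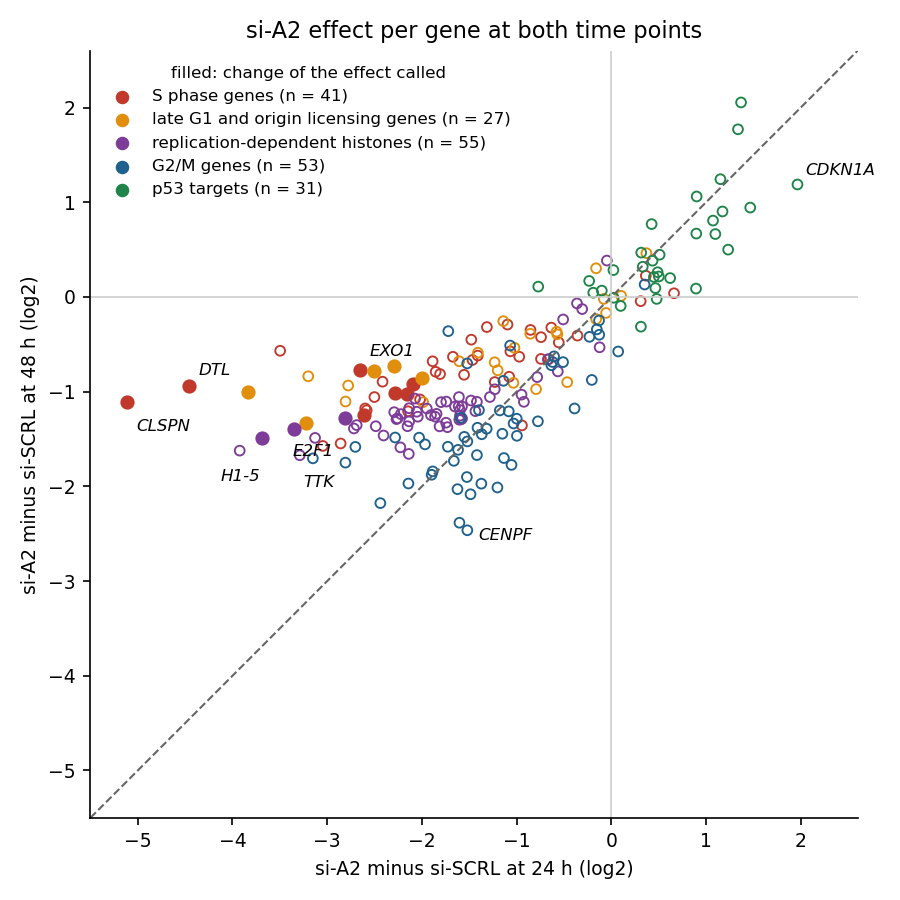
Effect of si-A2 at 24 h (x axis, log2) against its effect at 48 h (y axis, log2) for the genes of 5 lists, with filled points for genes whose change was called. Points on the dashed line have equal effects: S phase genes lie mostly above it (36 of 41), and 20 of 53 G2/M genes do.

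Genes were also counted by whether the arrays overlapped. All si-A2 arrays lay below all si-SCRL arrays for 36 of 41 S phase genes at 24 h (4.7% of all genes), for 33 at 48 h (7.2% of all genes, with 3 si-A2 arrays in place of 4) and for 32 at both times (2.5% of all genes). For the G2/M genes the counts were 42, 47 and 39 of 53, and for the histones 51, 45 and 45 of 55.

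The promoters of the lists differed in the motifs they hold, and 4 are shown as examples of the motifs: 3 of genes with a called positive change that hold the E2F-like motif, which most such genes did not, and that of CCNB2, whose change was not called. Each runs 5′ to 3′ from 250 bases before to 50 after the start in the RefSeq annotation of GRCh38.p14. Capitals mark an E2F-like motif (TTTCCCGC or TTTGGCGC, either strand) in the first 3 and the CHR motif (TTTGAA, either strand) in CCNB2. They lie at chr1:35769929-35770228 (minus strand), chr1:212035498-212035797 (plus strand), chr20:33686336-33686635 (minus strand) and chr15:59104896-59105195 (plus strand).
CLSPN: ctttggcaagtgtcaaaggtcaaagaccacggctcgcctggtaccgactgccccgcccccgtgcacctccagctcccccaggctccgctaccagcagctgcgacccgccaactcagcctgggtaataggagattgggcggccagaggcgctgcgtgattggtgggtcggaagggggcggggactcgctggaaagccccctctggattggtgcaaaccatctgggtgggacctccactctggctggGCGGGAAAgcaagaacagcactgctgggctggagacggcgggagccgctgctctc
DTL: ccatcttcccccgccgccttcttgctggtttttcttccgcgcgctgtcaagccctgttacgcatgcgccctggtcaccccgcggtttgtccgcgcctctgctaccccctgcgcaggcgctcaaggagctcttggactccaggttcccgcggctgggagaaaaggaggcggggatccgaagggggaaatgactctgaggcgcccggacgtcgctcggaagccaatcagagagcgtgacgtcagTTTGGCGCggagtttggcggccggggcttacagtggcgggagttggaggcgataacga
E2F1: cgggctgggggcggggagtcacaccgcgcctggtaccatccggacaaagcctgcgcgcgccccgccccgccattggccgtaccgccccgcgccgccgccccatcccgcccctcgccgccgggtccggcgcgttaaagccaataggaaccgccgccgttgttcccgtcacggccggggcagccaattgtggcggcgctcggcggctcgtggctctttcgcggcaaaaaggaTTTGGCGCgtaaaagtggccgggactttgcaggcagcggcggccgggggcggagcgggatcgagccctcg
CCNB2: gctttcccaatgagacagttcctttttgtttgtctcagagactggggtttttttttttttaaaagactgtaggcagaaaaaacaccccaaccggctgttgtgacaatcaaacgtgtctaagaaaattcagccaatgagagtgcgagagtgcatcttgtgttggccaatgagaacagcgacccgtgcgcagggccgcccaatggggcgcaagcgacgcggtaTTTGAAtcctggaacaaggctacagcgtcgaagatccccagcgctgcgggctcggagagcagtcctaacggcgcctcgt

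The E2F-like motif was present in 14 of 32 promoters of S phase genes found in that annotation (43.8%) and in 10 of 24 of late G1 genes (41.7%). It was in 2 of 44 promoters of G2/M genes (4.55%) and in 2.31% of all 27305 promoters of the same length. The CHR motif was present in 31 of the 44 G2/M promoters (70.5%), in 1 of the 32 S phase promoters and in 15.4% of all promoters. Among 21 genes with a positive called change and a promoter, 7 held the E2F-like motif, 14 did not, and 2 held the CHR motif. Of the 4 genes with a negative called change, STMN1 held the E2F-like motif. The histone promoters held the E2F-like motif in 0 of 50 and the CHR motif in 19 (38%). The S phase and late G1 lists hold genes known as E2F targets and the G2/M list holds genes known to carry the CHR, so these shares describe the lists. The match of letters is no measure of binding.

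Some targets of p53 were called higher at each time. Of 32 genes 31 passed the filter, and 12 were called higher at 24 h (0.41% of all genes) and 8 at 48 h (0.32% of all genes). Limma called 0 of them lower at either time, and 4 lay below si-SCRL at each. Their median effect was 0.49 at 24 h and 0.32 at 48 h, with a median change of -0.19. The change was called by limma for 0 of them and was positive for 11, and at an unadjusted p below 0.05 it was negative in 4 and positive in 0. The array medians with si-A2 were 0.50 to 0.58 at 24 h and 0.33 to 0.54 at 48 h, against at most 0.05 and 0.14 with si-SCRL. The median change was -0.053 when the probes of a gene were combined by their median and -0.064 with the filter on the interquartile range.

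CDKN1A (chr6:36676463-36687332, GRCh38.p14) had log2 intensities of 10.57, 10.79, 10.94 and 10.80 with si-SCRL and 12.87, 12.42, 12.58 and 13.10 with si-A2 at 24 h. At 48 h they were 9.14, 9.27, 9.04 and 9.34 with si-SCRL and 10.45, 10.10 and 10.65 with si-A2. The groups were apart at both times, and the effect was 1.97 at 24 h and 1.19 at 48 h, both called. The change of -0.78 had an interval from -1.27 to -0.29 and was not called (limma, adjusted p = 0.374). ZMAT3, an RNA-binding target of p53, had effects of 1.37 and 2.05, and SPATA18, a regulator of mitochondrial quality, of 1.34 and 1.77, all of them called. BTG2, an antiproliferative gene, had effects of 1.47 and 0.94 and FDXR, ferredoxin reductase, of 1.23 and 0.50, of which the last was not called.

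The median effect over the 11 DREAM subunits was -0.23 at 24 h and -0.14 at 48 h. At 24 h 3 were called lower (RBL1, RBBP4 and LIN52) and 1 higher (E2F5), against 1.92% and 0.41% of all genes. At 48 h 0 were called in either direction, against 1.27% and 0.32% of all genes. The pocket protein gene RBL1 (p107) had effects of -0.95 and -0.14, while a dimmer probe of it gave differences from si-SCRL of -2.70 and -0.93. E2F5 had effects of 0.79 and 0.00. Neither the change of RBL1 nor that of E2F5 was called by limma. At an unadjusted p below 0.05 the change was positive for 1 of the 11 and negative for 1.

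**Figure D4:**
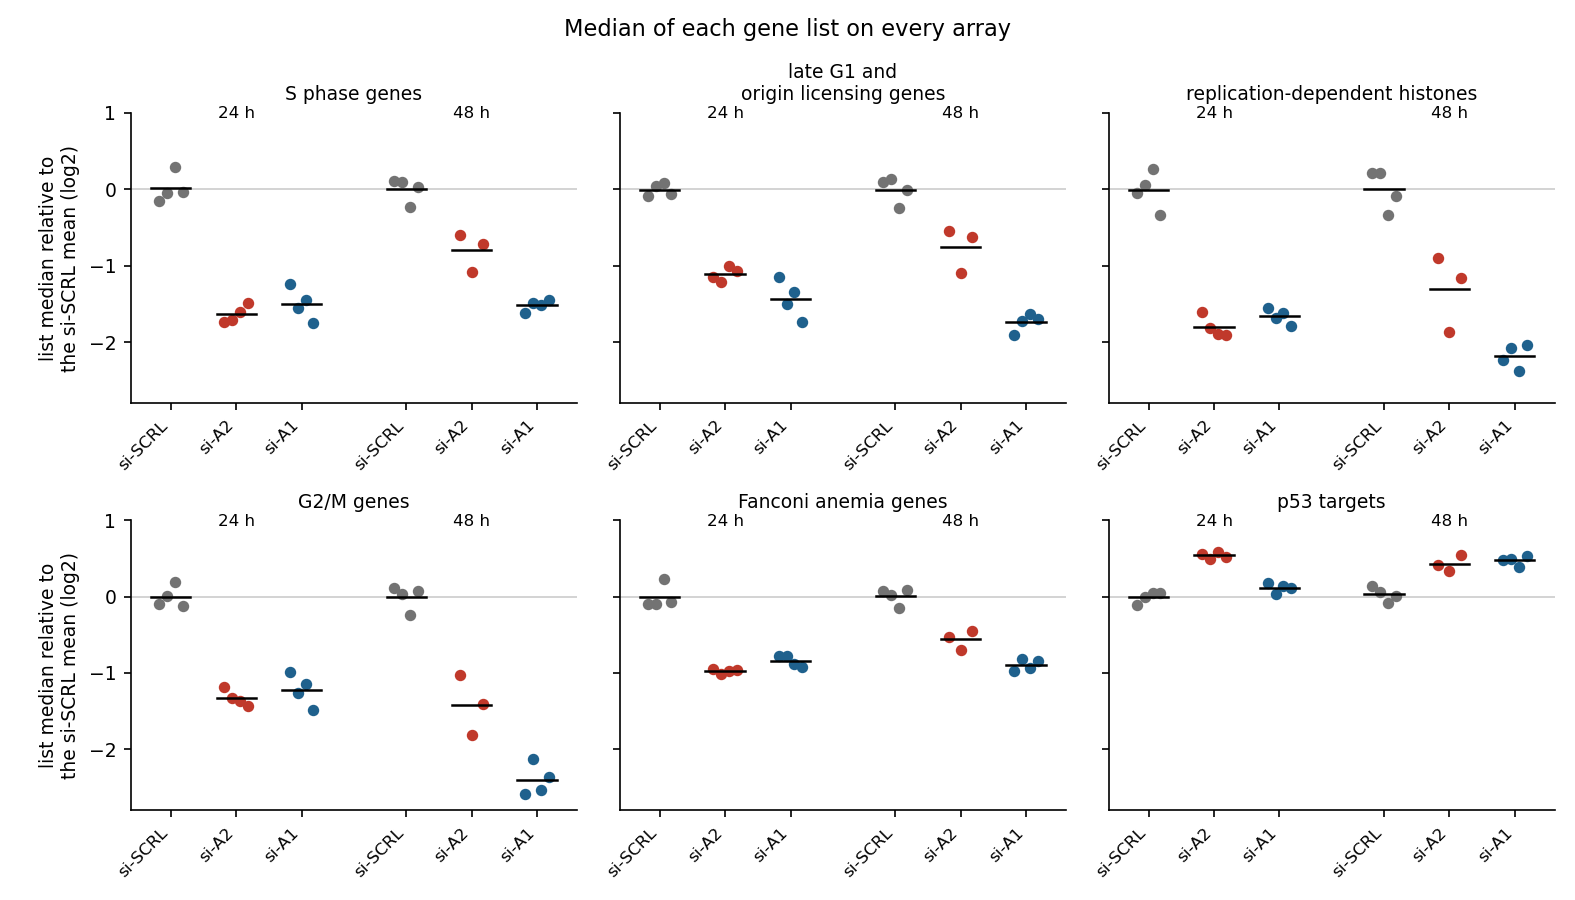
Median log2 level of 6 gene lists on every array relative to the mean of si-SCRL at the same time (y axis), with si-SCRL, si-A2 and si-A1 at 24 h and 48 h on the x axis, 1 point an array and lines at the group means. The S phase medians of si-A2 range from -1.74 to -1.48 at 24 h and from -1.08 to -0.60 at 48 h, while those of si-A1 stay between -1.75 and -1.24.

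In 4 genes the change was called negative, and they were of different kinds. STMN1, stathmin, which destabilises microtubules (chr1:25884179-25906880, GRCh38.p14), read between 8.87 and 9.07 on the 4 si-SCRL arrays and 8.01, 8.10, 8.29 and 8.20 with si-A2 at 24 h. At 48 h it read 9.48, 9.47, 8.84 and 9.37 with si-SCRL and 7.77, 6.80 and 7.12 with si-A2. The groups were apart at both times and further apart at 48 h, with effects of -0.83 and -1.98, both called. The change was -1.14 with a standard error of 0.21 (limma, adjusted p = 0.0416). The probes of STMN1 disagreed: a second probe gave a difference of effects of -1.13 but an effect of 0.80 at 24 h, and another, dimmer one gave 0.01.

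PTTG2 had effects of -0.16 at 24 h, not called, and of -1.14 at 48 h, called, with a change of -0.98 (limma, adjusted p = 0.0087). It is a near-identical paralog of PTTG1 and of the pseudogene PTTG3P, so the reading of each is uncertain. PTTG1 encodes securin, which keeps sister chromatids from separating before anaphase. PTTG1 read 6.91, 7.11, 7.55 and 7.04 with si-SCRL and 6.43, 6.58, 6.63 and 6.84 with si-A2 at 24 h. At 48 h it read 7.67, 7.18, 6.69 and 7.40 with si-SCRL and 5.24, 4.43 and 5.21 with si-A2. The gap between the groups was small at 24 h and wide at 48 h. The changes of PTTG1 (-1.69) and PTTG3P (-1.39) did not pass the test (limma, adjusted p = 0.0536 and 0.0516).

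ACLY and NUP50-DT had been higher with si-A2 at 24 h and were not at 48 h. ACLY, ATP citrate lyase, which makes acetyl-CoA for lipid synthesis, read 11.14, 11.40, 11.42 and 11.25 with si-SCRL and 12.47, 12.40, 12.38 and 12.84 with si-A2 at 24 h. At 48 h it read 11.05, 10.49, 11.84 and 11.42 with si-SCRL and 10.98, 11.53 and 11.45 with si-A2, and the groups overlapped. Its effect was 1.22 at 24 h and 0.02 at 48 h (change -1.19; limma, adjusted p = 0.0463). NUP50-DT, a lncRNA divergent to NUP50, had effects of 0.99 and -0.24 (change -1.23; limma, adjusted p = 0.0388). ACLY kept its call under 9 alternatives of 39, STMN1 under 14, NUP50-DT under 18 and PTTG2 under 34.

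Among the positive changes outside the lists were ZNF367, a zinc finger gene (2.80), PAQR4 (1.72), ESRRB, an orphan nuclear receptor (1.70), the homologous recombination cofactor PSMC3IP (1.35) and the replication factor WDHD1 (1.29). ESRRB had an effect of 0.12 at 48 h, against -1.58 at 24 h. FAM111B, a protease gene, was at least 6.36-fold lower at 24 h and SHCBP1 at least 6.40-fold, with changes of at least 2.00 and 1.77. The probe A_33_P3374365, which has no gene name here, was bright in all groups: it read 15.47, 15.39, 14.53 and 15.27 with si-SCRL and 12.81, 12.93, 12.85 and 12.30 with si-A2 at 24 h, and 15.27, 15.32, 15.02 and 15.00 against 15.24, 15.01 and 15.12 at 48 h. Its effect of -2.45 at 24 h was 0.01 at 48 h (limma, adjusted p = 5.84e-05 for the change).

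Whether the change belonged to si-A2 or to both siRNAs was tested directly, as the difference between the change of si-A2 and that of si-A1. The comparisons of the 2 siRNAs with si-SCRL share their controls, but si-SCRL cancels in this difference. It was called higher for 118 genes (0.39%) and lower for 38 (0.126%). Of the 4 genes with a negative change of si-A2, the change of si-A1 was also called for 3 (ACLY -0.93, STMN1 -1.75 and PTTG2 -0.78). Of the 27 with a positive change of si-A2, it was called for 2. Over all genes tested, the change of si-A1 was called for 0.75%. The number called was 156 in all, and it was 240 without si-SCRL replicate 3 at 24 h, 72 or 83 without si-A1 replicate 1 or 3 at 24 h, 102 or 69 without si-A1 replicate 1 or 3 at 48 h, and 48 or 67 without si-A2 replicate 1 or 4 at 48 h.

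For S phase genes the median effects of the 2 siRNAs were close at 24 h and apart at 48 h. The median effect was -1.55 with si-A2 and -1.53 with si-A1 at 24 h, and -0.77 and -1.42 at 48 h. With si-A1, 31 of the 41 genes were called lower at 24 h (2.4% of all genes) and 31 at 48 h (4.39% of all genes), where si-A2 had 35 and 13. The difference in the change was called for 16 of 41 S phase genes, 7 of 27 late G1 genes, 16 of 55 histones and 3 of 22 Fanconi genes. All were higher, against 0.39% of all genes. For EXO1 the effects with si-A1 were -2.31 and -2.59, and for E2F1 they were -2.44 and -2.71. Both genes were named for their change with si-A2, which is part of the difference between the siRNAs, so these values are a description.

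For the G2/M genes the decrease was larger at 48 h with si-A1. The median effect of si-A1 was -1.17 at 24 h and -2.35 at 48 h, against -1.37 and -1.45 with si-A2. The change of si-A1 was called lower for 22 of the 53 genes, and for 137 of all genes tested (0.453%). The difference was called for 11, all higher (0.39% of all genes), among them AURKA (1.24) and BIRC5 (1.67). CDKN1A went the opposite way: its effect with si-A1 was 0.71 at 24 h and 2.03 at 48 h, and the difference of -2.10 with a standard error of 0.23 was called (limma, adjusted p = 0.000269). Of the 31 p53 targets 3 were called for the difference, all lower (CDKN1A, FDXR and BTG2), against 0.126% of all genes. The median effect of the p53 list with si-A1 was 0.10 and 0.37.

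**Figure D5:**
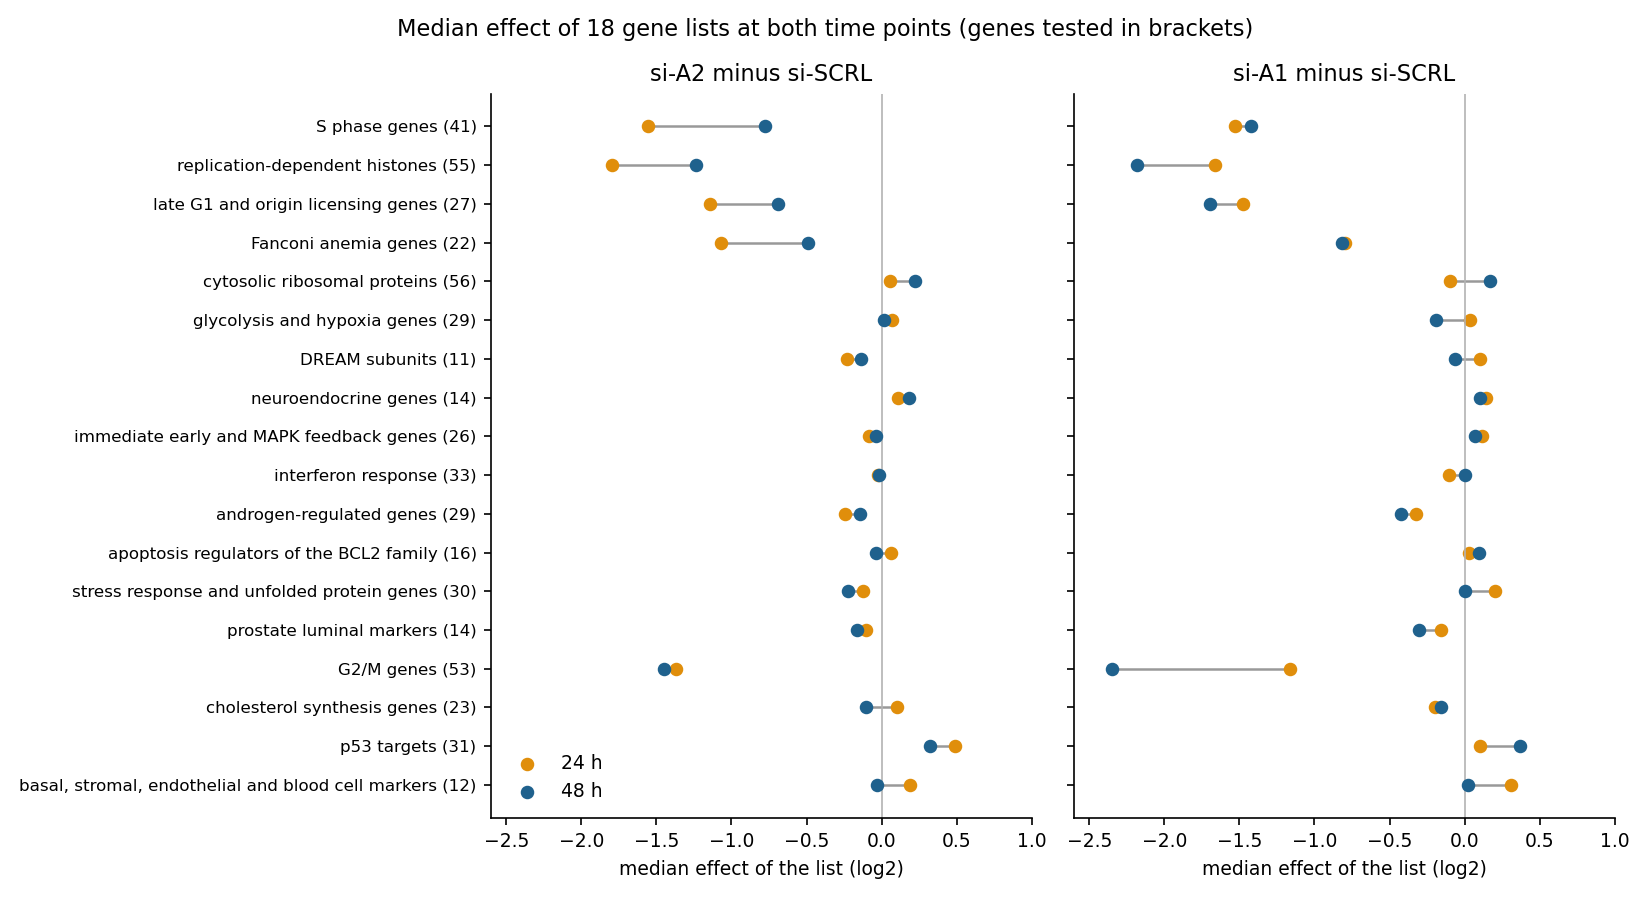
Median effect (x axis, log2) of each of 18 gene lists at 24 h and 48 h with si-A2 and with si-A1, 1 row a list. The S phase list moves from -1.55 to -0.77 with si-A2 and from -1.53 to -1.42 with si-A1, and the G2/M list from -1.37 to -1.45 and from -1.17 to -2.35.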

How the data were processed

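For each siRNA and time, 4 biological replicates were prepared, per the methods. Whether they were transfected separately is not given in the sources used here, so p-values measure the spread between these samples, which may be technical.

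The authors deposited the Agilent Feature Extraction output of each array, and the column used is the processed signal, a linear intensity from which background had been subtracted array by array and which had not been normalized across arrays. The log2 values deposited by the authors for each time order the spots as that signal does and were used as an alternative. The submitters' processing notes name R 3.4.3, limma 3.34.8 and hg38.

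The log2 processed intensity was quantile-normalized over the 45698 probes on both array versions and all 23 arrays. Probes entered if their signal lay above the negative controls (308 spots, mean plus 3 SDs) on at least 3 arrays at each time, and the brightest of a gene's probes was used. Of the shared probes, 28661 (62.7%) were named through RefSeq accessions, and others kept the name of the array design. Linear models were fitted with limma 3.58.1 in R 4.3.3 (lmFit, eBayes) over the 6 groups, with slide within time as an additive term, and p-values were adjusted by Benjamini-Hochberg over all genes tested. Effects were called at an adjusted p below 0.01, as in the methods of the study, and changes below 0.05, each with an absolute log2 value of at least 0.5. A level below the limit for a signal well above background on each array of a group was treated as a bound, computed per array from the higher of its own signal and the lowest signal well above background. Array number limits the precision, and the median residual SD was 0.31 at 24 h and 0.21 at 48 h. Scripts were tested on simulated data.

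The genes named were TAPIR-2, the 10 largest called changes in each direction (filled up in order of p), the genes the study names for these arrays, and in each list the called members and the 2 largest changes in each direction. PCNA, MCM2, MCM6, MCM7, FANCI, FANCD2, SPATA18, BTG2, FDXR, RBBP4, LIN52, PAQR4, ESRRB, PSMC3IP, WDHD1 and 2 called probes without a RefSeq name lie outside that rule and were chosen after their values were seen. Some members of the lists are counted but their values are not reported here. The 18 gene lists and these rules were written with earlier results of these data known. Alternatives covered normalization, background correction, slide, replicate block, filters, probe rules, thresholds and each array left out. Sequences of siRNAs and probes are not used here.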

Additional observations from a re-analysis of the deposited data

Results flagged for a closer look

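Each of 186 groups of 4 arrays among the genes named and the list medians was checked for 1 array standing apart from the other 3, and 10 did, close to the 1 in 20 that chance gives. They were, as log2 intensities, FAM111B (2.61) and CHEK1 (4.63) with si-A2 replicate 2 at 24 h, STEAP3 with si-A2 replicate 1 at 24 h (8.50) and si-SCRL replicate 2 at 48 h (7.61), AURKA with si-SCRL replicate 1 at 48 h (9.21), CDC25C (5.86) and BIRC5 (10.16) with si-SCRL replicate 4 at 48 h, MCM4 with si-SCRL replicate 3 at 24 h (9.41) and CDC45 with si-SCRL replicate 3 at 48 h (9.51). The median of the Fanconi anemia genes on si-SCRL replicate 3 at 24 h was 0.23 above the si-SCRL mean.

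The effect of si-A2 differed between the times for 31 genes, and the change differed between si-A2 and si-A1 for 156. The 6 positive changes with si-A2 below background at 24 h were fitted at 4.00 (CLSPN), 3.52 (DTL), 3.30 (SHCBP1), 2.83 (E2F2), 2.37 (FAM111B) and 2.12 (BRCA1), which are not bounds, and ITGAL at 3.75, which is no measured size, since it was not well above background in either group at 24 h nor with si-SCRL at 48 h. The other positive changes were 2.80 for ZNF367, 2.46 for A_33_P3374365, 2.20 for H2AC16, 1.96 for H3C2, 1.89 for E2F1, 1.88 for EXO1, 1.73 for ORC6, 1.72 for PAQR4, 1.70 for ESRRB, 1.65 for the lncRNA probe lnc-PTGES2-1:6, 1.57 for ORC1, 1.53 for H3C7, 1.36 for GINS2, 1.35 for PSMC3IP, 1.29 for WDHD1, 1.27 for MCM4, 1.18 for MCM5, 1.14 for MCM3, 1.13 for CDC45 and 1.05 for FANCA. The negative ones were -0.98 for PTTG2, -1.14 for STMN1, -1.19 for ACLY and -1.23 for NUP50-DT.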

How the results depend on the processing

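Genes called for the change numbered 31, and 49 (34 higher, 15 lower) with no background correction, 47 with the filter of spots well above background, 16 with no filter, 15 with no slide term, 13 at an adjusted p below 0.01, 10 with only the si-A2 and si-SCRL arrays and 2 with the dim 48 h si-A2 array kept. With only the si-A2 and si-SCRL arrays 436 genes were called at 24 h and 180 at 48 h, with the dim array kept 95 and 57, and with array weights 477 and 864. The difference between the siRNAs was called for 90 genes with no slide term and 2 with the dim array kept. The median change of the S phase genes was 0.35 with normexp correction, 0.39 with no correction, 0.35 with the dim array kept and 0.64 at the lowest within slides. That of the Fanconi genes was 0.055 with normexp and 0.57 at the highest within slides, and that of the p53 targets -0.064 with the interquartile filter, -0.053 with the median of probes and -0.57 with the dim array kept. The dim array also gave -0.54 for the G2/M genes and -0.18 for the histones, and it reversed MCM3 to -0.016. The cause was not tested. With each of the 23 arrays left out, the change was called for 9 to 50 genes, the effects for 516 to 730 at 24 h and 218 to 653 at 48 h, and the difference between the siRNAs for 48 to 240. The medians were 0.80 to 1.10 for S phase, 0.41 to 0.58 for late G1, 0.40 to 0.77 for histones, 0.12 to 0.47 for Fanconi, -0.20 to 0.03 for G2/M and -0.23 to -0.11 for p53 targets. In an alternative chosen after seeing the data, only the 22498 genes well above background in all 4 groups were kept: 38 were called (27 higher, 11 lower), with medians of 0.80 for S phase, 0.44 for late G1, 0.55 for histones and -0.12 for G2/M.

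With the replicate number as a block, 29 changes were called (26 higher, 3 lower), with 595 genes at 24 h, 353 at 48 h and 133 for the difference between the siRNAs, and the S phase median was 0.98. The block kept 23 of the 31 calls and lost SHCBP1, ACLY, STMN1, FANCA, MCM3, WDHD1, ESRRB and PSMC3IP. Deviations of same-numbered arrays correlated from -0.20 to 0.17 at 24 h and from 0.21 to 0.38 at 48 h, where arrays of other numbers on the same slide had 0.10 to 0.32, so the number was not taken as pairing the samples.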

Other observations

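In the 11 lists outside the cell cycle, p53 and DREAM, limma called 0 changes, and 22 of 282 members passed an unadjusted p below 0.05. Over all genes 2229 of 30270 passed, a close share to that of the 11 lists together. Single lists ran from 0 of 29 glycolysis and hypoxia genes to 4 of 14 neuroendocrine genes (3 positive, 1 negative). No list was tested as a set. The median changes of these lists ran from -0.24 for the markers of basal, stromal, endothelial and blood cells to 0.17 for the ribosomal proteins, against -0.02 over all genes. The 56 ribosomal protein genes had a median effect of 0.05 at 24 h and 0.22 at 48 h, and the change was positive for 50 of them, with 2 at an unadjusted p below 0.05. The si-A2 arrays of 48 h had list medians between 0.06 and 0.51 relative to si-SCRL, against -0.05 to 0.04 for the si-SCRL arrays of 48 h. The si-SCRL arrays of 24 h ran from -0.27 to 0.36. With si-A1 the list medians at 48 h ran from -0.01 to 0.32, and the median change was 0.26. The 23 genes of cholesterol synthesis had medians of 0.10 and -0.11, and 4 had a negative change at an unadjusted p below 0.05. The 29 androgen-regulated genes had medians of -0.24 and -0.14, and 3 changes passed an unadjusted p below 0.05. For the 33 interferon response genes the medians were -0.02 at both times, with 2 changes at an unadjusted p below 0.05.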
